A study of Mus musculus with 96 samples.

Results

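Warm-sensitive and cold-sensitive neurons of the mouse preoptic area were compared by their RNA. The preoptic area, in the front of the hypothalamus, receives temperature signals from the skin and the body core and sends output to brown fat, skin vessels and shivering muscle. A warm-sensitive neuron is known for firing faster as the slice is warmed, and a cold-sensitive neuron for firing faster as it is cooled. Which channels set either behaviour in these cells is debated, with transient receptor potential (TRP) channels, leak channels and synaptic input all put forward.

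Members were chosen by the temperature class that the labels give each cell, 21 warm-sensitive and 5 cold-sensitive cells of 96 in the series. All came from C57BL/6N mice aged 2 to 3 months, were recorded by whole-cell patch clamp in acute slices and were then drawn into a glass pipette for Smart-seq2, a full-length RNA amplification without molecular identifiers. The 24 cells labelled insensitive serve only as a further value beside named genes. No label names an animal, so each class counts as 1 sample and every difference below is a description without a test. Intervals are exact at 95% and cover counting error only.

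Neuronal markers were present in every cell: warm-sensitive cells held 5 to 13 and cold-sensitive cells 7 to 15 of 18 pan-neuronal genes at 10 CPM or more (counts scaled to a total of 1000000 per cell), the level that counts as detected throughout. Warm-sensitive cells had 784577 to 2590515 counts, and cold-sensitive cells 865299 to 2738417. The ribosomal RNA precursor gene Rn45s took 29.3 to 90.6% of the counts in warm-sensitive cells and 45.2 to 69.8% in cold-sensitive cells. Warm-sensitive cells had a median of 1348 detected genes (492 to 3080), while cold-sensitive cells 1 to 5 had 3031, 2211, 3443, 482 and 3143. Cold-sensitive cell 4 stood apart from the other 4. Values without it are given for those list genes named below that leaving it out moved across 2 or -2, and some other list genes moved too.

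**Figure D1:**
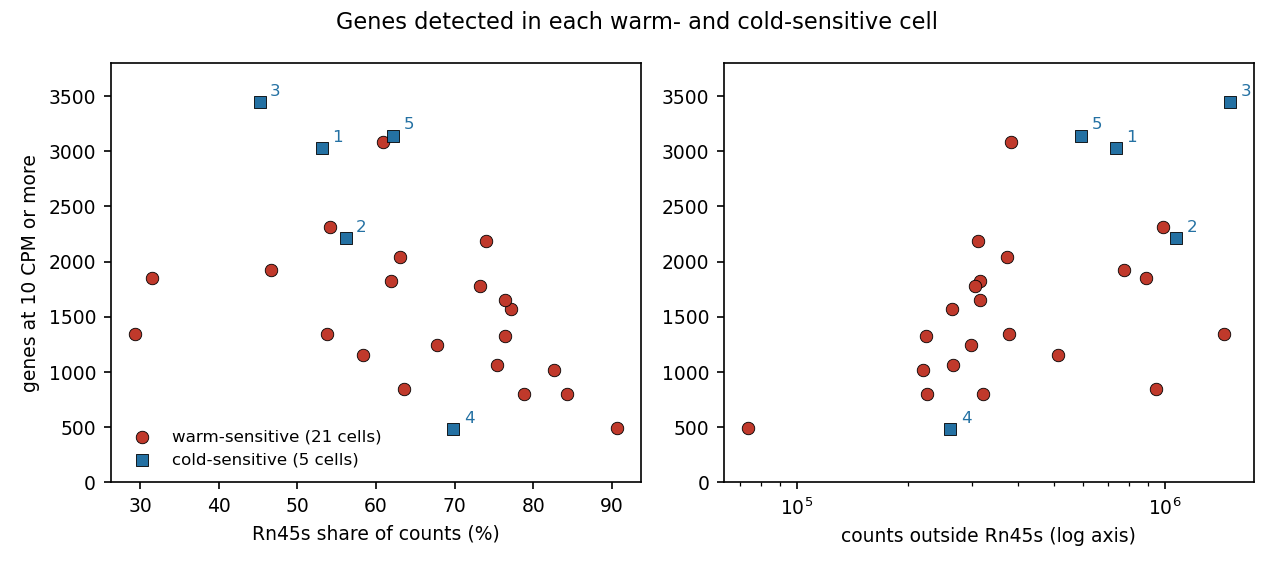
Genes at 10 CPM or more (y axis, number) against the Rn45s share of counts (left, %) and the counts outside Rn45s (right, log axis) in each warm-sensitive (circles) and cold-sensitive cell (squares, numbered 1 to 5). Cold-sensitive cells 1, 3 and 5 had 3031, 3443 and 3143 genes, a range that 1 warm-sensitive cell reached with 3080, and cold-sensitive cell 4 had 482, below every warm-sensitive cell.

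For each gene log2(CPM + 1) was averaged over the cells of a class and the cold-sensitive mean was taken from the warm-sensitive mean; this scale makes the differences of low genes look smaller than they are. A gene was eligible if 6 or more warm-sensitive cells (25% or more) or 3 or more cold-sensitive cells detected it. The median of the 2199 eligible genes was -1.56, so genes are given relative to it, as centred differences. Genes with a centred difference of 2 or more numbered 281 (12.8%) and those at -2 or less 163 (7.41%). A centred difference of 2 corresponds to an uncentred one of 0.44, and 253 of the 281 had an uncentred difference under 2. The split was 394 against 359 with Rn45s left out of the totals and 201 against 262 with DESeq2 size factors.

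Eligibility itself favours 1 direction: a gene that entered only through warm-sensitive cells was by rule detected in fewer than 3 cold-sensitive cells. Of 572 such genes 249 (43.5%) were past 2, and of 619 that entered only through cold-sensitive cells 114 (18.4%) were past -2. No gene had every warm-sensitive cell above every cold-sensitive cell (0%), and 1 gene had every cold-sensitive cell above every warm-sensitive cell (0.0455%). Leaving out cold-sensitive cell 4 gave 342 genes past 2 and 203 past -2, of which 270 and 110 were shared with the full set. Of the gene lists described below, 26 members were past 2, 10 of them whichever cell was left out, and 18 were past -2, 7 of them whichever cell was left out. Among the other 11 lower members 9 were inside -2 without cold-sensitive cell 4, and they are named below with the value without it.

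Transmitter marks were found in both classes. GABA neurons make their transmitter with Gad1 and Gad2, and glutamate neurons of the hypothalamus load theirs with the vesicular transporter Slc17a6. Gad1 or Gad2 was detected in 14 of 21 warm-sensitive cells (66.7%, 43.0 to 85.4%) and in 3 of 5 cold-sensitive cells (60%, 14.7 to 94.7%). Slc17a6 was detected in 8 warm-sensitive cells (38.1%, 18.1 to 61.6%) and in 2 cold-sensitive cells (40%, 5.27 to 85.3%). A mark of both kinds was seen in 3 warm-sensitive cells and 1 cold-sensitive cell, and neither mark in 2 warm-sensitive cells and 1 cold-sensitive cell, cell 4. The intervals are too wide to show whether the classes differ in transmitter.

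The genes best known for sensing temperature were rarely seen. No warm-sensitive or cold-sensitive cell reached 10 CPM for Trpv1, the capsaicin and heat receptor, for Trpm8, the menthol and cold receptor, for the TRP channel Trpc5, for Ptger3, the prostaglandin E2 receptor of the fever pathway, or for the growth factor Bdnf. Trpm2, a heat-activated channel described in preoptic neurons, was detected in 2 warm-sensitive cells, 0 cold-sensitive cells and 2 insensitive cells. Of 16 TRP genes 12 were detected in neither class, and no TRP gene, calcium channel subunit, hormone or prostaglandin receptor or preoptic transcription factor of the lists was eligible. At this depth a difference in these genes was not detectable.

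Genes of GABA reception lay above the median gene. GABA-A receptors are chloride channels built of several subunits, and GABA-B receptors act through G proteins. Of 14 GABA receptor genes described here 5 were eligible, all 5 lay above the median gene, 1 was past 2 (Gabrb2) and none was past -2; without cold-sensitive cell 4 it was 2, with Gabbr1. The list's median was 1.003, against 0 over all eligible genes, and 4 of the 5 had entered through warm-sensitive cells alone. The median lay between 0.44 and 1.90 when each cold-sensitive cell was left out in turn, but was -0.62 when cells were compared within each letter of their titles and was also negative with no filter on low genes.

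Gabrb2, a beta subunit, was detected in 11 warm-sensitive cells, with a highest value of 1814 CPM, and had 165, 0.409, 0, 0 and 58.8 CPM in cold-sensitive cells 1 to 5. Its centred difference was 2.90, and 1.93 without cold-sensitive cell 3. Gabbr1, of the metabotropic GABA-B receptor, had 1.61, and 3.73 without cold-sensitive cell 4, which held 690 CPM. Among genes that make or break down GABA none reached 2: Gad1 had 1.78, Abat, which breaks GABA down, 0.30, and Gad2 0.11.

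Few ion channel genes passed the filter. Nalcn, the sodium leak channel that sets resting potential, was detected in 6 warm-sensitive cells and no cold-sensitive cell, with a centred difference of 3.53. It had entered through warm-sensitive cells alone, at the smallest number of cells that the filter allows. By that route 43.5% of genes were past 2. Without cold-sensitive cell 4 its centred difference was 4.19 and its uncentred one 1.93. Kcnk1, a background potassium channel, lay the other way at -1.06. Of 28 voltage-gated potassium channel genes 5 were eligible, 4 of them through warm-sensitive cells alone, with a median of 1.80 and none past 2 in either direction. Without cold-sensitive cell 4 the median was 1.89, and Kcnc4 (1.87 with all cells) and Kcnip4 (1.91) were past 2 at 2.27 and 2.20. Of 8 voltage-gated sodium channel genes described here 3 were eligible, all above the median gene with Scn2b highest at 0.73, and their median was 0.36, but -0.29 without cold-sensitive cell 5. Among glutamate receptor genes, Gria2 of AMPA receptors was at 2.06 with 14 warm-sensitive and 3 cold-sensitive cells. Any of 13 cells ended that call when left out, and without cold-sensitive cells 1 and 4 in turn it was at 1.14 and 1.94. Gria1, Gria4 and Grin1 lay closer to the median gene, at 0.35, 0.31 and 0.10.

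Fgf13 (mm10, chrX:59062145-59568071), also called FHF2, encodes a cytosolic protein that is not secreted like other fibroblast growth factors but binds voltage-gated sodium channels and shifts their inactivation. It was detected in 5 of 21 warm-sensitive cells (23.8%, 8.22 to 47.2%), in all 5 cold-sensitive cells (47.8 to 100%) and in 4 of 24 insensitive cells (16.7%, 4.73 to 37.4%). Its level was 0, 0 and 285 CPM as lowest, median and highest in warm-sensitive cells, against 119, 147, 137, 68.2 and 85.0 CPM in cold-sensitive cells 1 to 5. The cold-sensitive cells lay close together, cell 4 included, while 2 of the 21 warm-sensitive cells lay above all of them. The centred difference was -3.43, and -2.89 without cold-sensitive cell 4. Summed over each class Fgf13 stood at 35.5 CPM (33.3 to 37.8) in warm-sensitive cells and 121 CPM (114 to 129) in cold-sensitive cells, a centred difference of -1.35. Its relative Fgf12 was at -0.68.

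Fgf13 was 1 of 9 genes detected in all 5 cold-sensitive cells and in under 25% of warm-sensitive cells; 175 genes were detected in all 5. The other 8 were Psmd14, Psmb3, Uqcrfs1, Fundc1, Tbcb, Cct4 and, named here after their values were seen, Eif4a1 and Cops7a. Those 8 were detected in 12 to 16 of the 24 insensitive cells and Fgf13 in 4 of them. Insensitive cells had a median of 2429 detected genes, between those of warm-sensitive cells (1348) and cold-sensitive cells (3031); the part of detection in these counts was not tested. Thinning each cell to 100000 counts outside Rn45s, which left 20 warm-sensitive cells, gave Fgf13 at 5 counts or more in 5 of 20 warm-sensitive and 5 of 5 cold-sensitive cells.

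**Figure D2:**
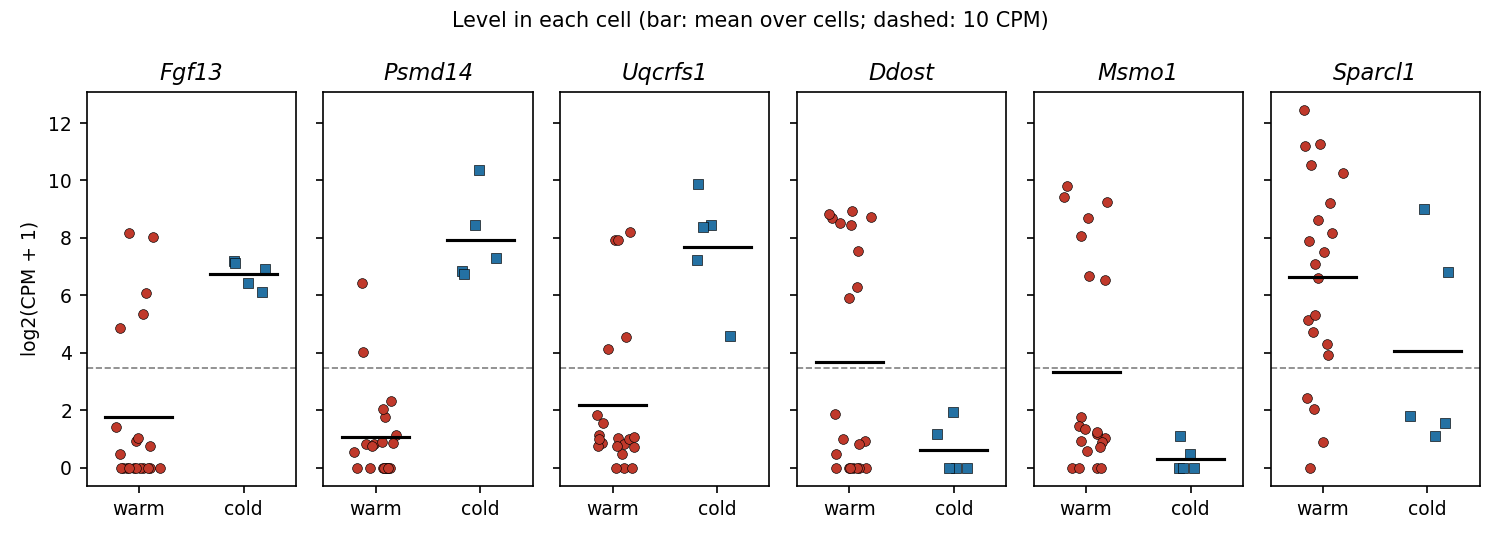
Level of 6 genes as log2(CPM + 1) (y axis) in each warm-sensitive (circles, left) and cold-sensitive cell (squares, right), with the mean over cells as a bar and 10 CPM as a dashed line. All 5 cold-sensitive cells lie above the line for Fgf13, Psmd14 and Uqcrfs1, and 0, 0 and 2 of them for Ddost, Msmo1 and Sparcl1.

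Psmd14 (mm10, chr2:61711694-61800376) was the gene whose classes did not overlap. It encodes the deubiquitinase of the proteasome lid, which removes ubiquitin chains as a protein is taken in for degradation. Warm-sensitive cells had 0, 0.692 and 85.3 CPM as lowest, median and highest, against 114, 156, 346, 1317 and 107 CPM in cold-sensitive cells 1 to 5. The lowest cold-sensitive cell lay above the highest warm-sensitive cell. The centred difference was -5.31, and -4.00 without cold-sensitive cell 4, the cell with the highest value. With counts thinned as above, 2 of 20 warm-sensitive and 5 of 5 cold-sensitive cells had Psmd14.

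Other proteasome genes did not share the size of this difference. Of 32 proteasome subunit genes 25 were eligible, 3 were past -2 (Psmd14, Psmb3 and Psmb6), Psma2 was past 2 at 2.32, and the list's median was -0.12. Psmb3, a structural beta subunit, had a highest value of 25.9 CPM in warm-sensitive cells, against 63.9, 42.6, 25.9, 613 and 10.9 CPM in cold-sensitive cells 1 to 5. Cold-sensitive cell 5 lay within the warm-sensitive range and cell 3 stood at its upper edge. With counts thinned as above, 2 of 20 warm-sensitive and 3 of 5 cold-sensitive cells had 5 counts or more of Psmb3. Psmb6, a catalytic subunit of the constitutive proteasome, was detected in 12 warm-sensitive and 5 cold-sensitive cells, with a centred difference of -2.75 that was -1.58 without cold-sensitive cell 4. Psma1 and Psmd11, at -1.64 and -1.73 with all cells, were past -2 without that cell, at -2.16 and -2.06. Psma2 was at 1.34 without cold-sensitive cell 3. The number of proteasome genes detected per cell had a median of 9 in warm-sensitive, 24 in cold-sensitive and 21 in insensitive cells, while cold-sensitive cell 4 had 3.

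Mitochondrial genes were mixed. Of 53 nuclear genes of oxidative phosphorylation 50 were eligible, 3 were past -2, 1 was past 2, and the median was 0.21, a sign that turned under 6 of 14 alternatives and, at -0.0026, without cold-sensitive cell 2. Uqcrfs1, the Rieske iron-sulfur subunit of complex III, had 0, 1.02 and 295 CPM as lowest, median and highest in warm-sensitive cells, against 23, 148, 346, 942 and 334 CPM in cold-sensitive cells 1 to 5. Cold-sensitive cells 1 and 2 lay within the warm-sensitive range and cells 3, 4 and 5 above it. The centred difference was -3.96, and -2.72 without cold-sensitive cell 4.

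Sdhb, the iron-sulfur subunit of complex II, was detected in 8 warm-sensitive and all 5 cold-sensitive cells, at -2.45, and at -1.32 without cold-sensitive cell 4. Cs, citrate synthase, was detected in 3 warm-sensitive and 4 cold-sensitive cells at -3.12, and at -1.49 without that cell, which held 868 CPM. Ndufb9 of complex I was at -2.04, with a range of -2.94 to -1.62 as single cells were left out. Ndufc2, also of complex I, lay the other way at 2.63, with 15 warm-sensitive and 3 cold-sensitive cells, and at 1.76 without cold-sensitive cell 2. Uqcrb of complex III (0.99) and Cox7c of complex IV (1.62) were past 2 without cold-sensitive cell 4, at 2.38 and 2.85. Fundc1, an outer membrane receptor for the removal of mitochondria by autophagy, was detected in 4 warm-sensitive cells and had 112, 48.7, 119, 1283 and 215 CPM in cold-sensitive cells 1 to 5. Its highest warm-sensitive value, 488 CPM, exceeded 4 of the cold-sensitive cells.

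The 15 named genes with the most negative centred differences lay between -5.31 and -3.32, and 12 had entered through cold-sensitive cells alone. All 15 stayed past -2 without cold-sensitive cell 4, which the naming rule (2/3 of the size kept with any cell left out) had ensured. Apart from Psmd14, Uqcrfs1, Fundc1 and Fgf13 they were, in order, Tbcb, Fez1, Camk1, Cmas, Ngb, Ypel3, Cyb5, Sult4a1, Sgta, Eif3k and Cd53. Tbcb, a cofactor for folding tubulin, and Camk1, a calmodulin-dependent kinase, each share exon sequence positions with a neighbouring gene, Polr2i and Ogg1, so reads of each pair could not be told apart.

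Fez1, a kinesin adaptor for axonal transport, was detected in 0 of 21 warm-sensitive cells (0%, up to 16.1%), 4 of 5 cold-sensitive cells and 17 of 24 insensitive cells. Its highest warm-sensitive value was 1.23 CPM, against 88.8, 98.3, 131, 1.16 and 175 CPM in cold-sensitive cells 1 to 5. Cold-sensitive cell 4 was the sole overlap, and without it the centred difference was -4.22 in place of -3.77. Ngb, the oxygen-binding neuroglobin, was detected in 2 warm-sensitive cells, the highest at 634 CPM, and had 153, 242, 212, 0 and 300.5 CPM in cold-sensitive cells 1 to 5.

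Of 29 kinesin, dynein and dynactin genes 19 were eligible, 4 were past -2 (Kif5c, Kif5b, Dync1i1 and Actr1a) and none past 2, with a median of -0.47. Over all eligible genes 7.41% were past -2. Of the 19, 4 had entered through cold-sensitive cells alone, a route by which 18.4% of genes were past -2, and 2 through warm-sensitive cells alone. Kif5c, the neuronal kinesin heavy chain, had a median of 2.10 and a highest value of 334 CPM in warm-sensitive cells, against 432, 653, 804, 3.47 and 298 CPM in cold-sensitive cells 1 to 5. Its cold-sensitive values in cells 1 to 3 lay above every warm-sensitive cell, and cells 4 and 5 lay within the warm-sensitive range. Its centred difference was -3.11. Kif5b, the ubiquitous form, was at -2.90, and at -1.52 without cold-sensitive cell 4, which had 1596 CPM. Dync1i1, a dynein intermediate chain, was at -2.45, and at -0.43 without that cell. With cell 4 left out 3 motor genes were past -2, Kif3a among them at -2.46 (-1.94 with all cells), and the list's median was -0.49. Also inside -2 without it were Calb2, a calcium buffer (-2.96 with all cells and -1.70 without cell 4), the microtubule protein Map1a (-2.74 and -1.45) and the neurofilament Nefl (-2.30 and -0.86). The tubulins Tubb3 (-1.44 and -2.40) and Tuba4a (-1.61 and -2.32) moved past it.

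**Figure D3:**
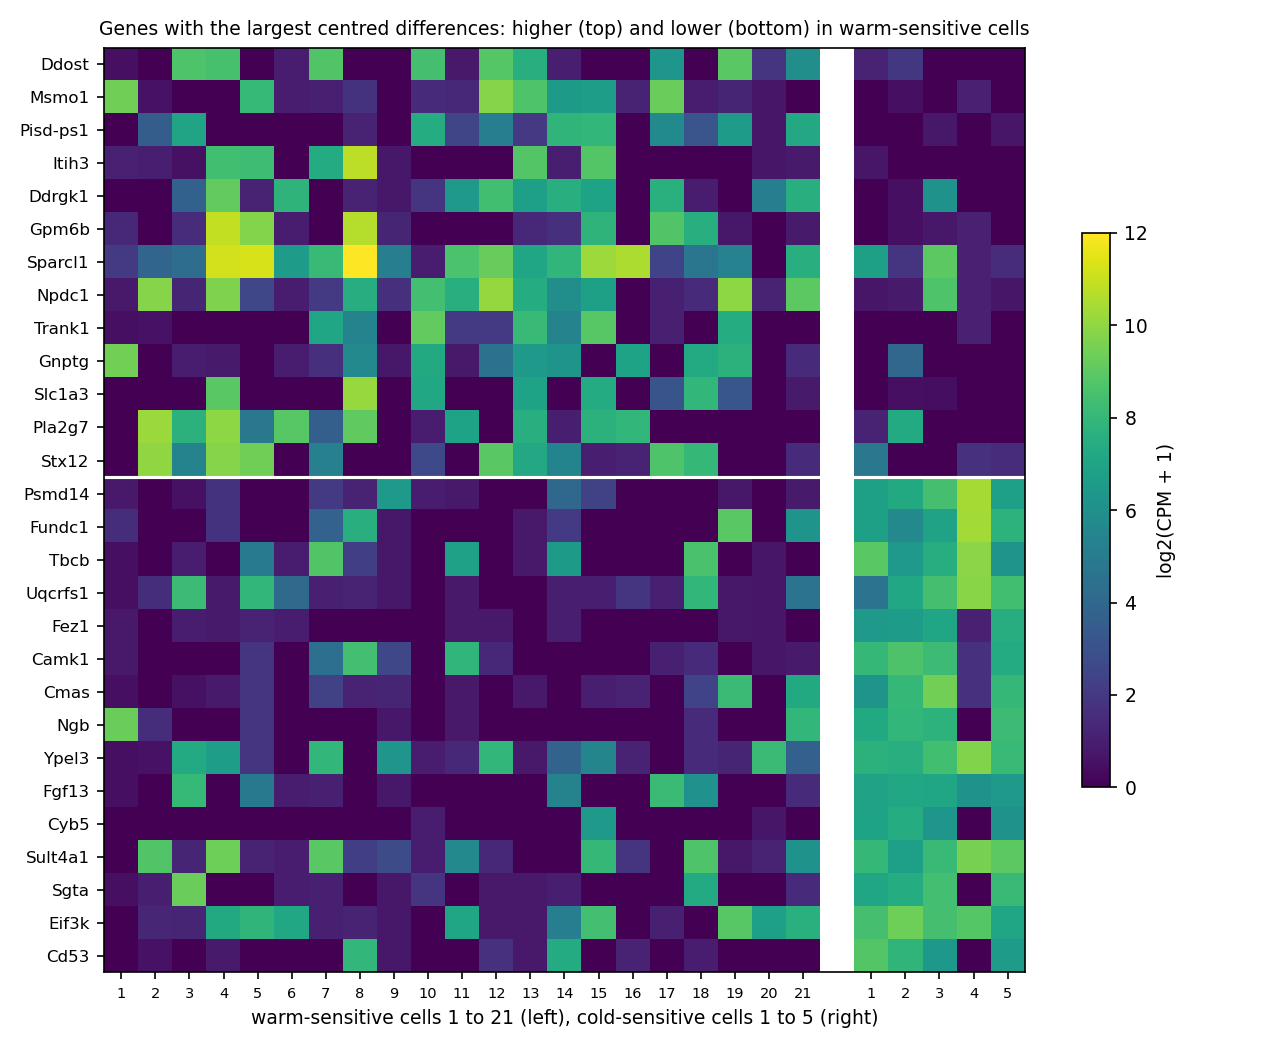
Level as log2(CPM + 1) (colour) of genes with the largest centred differences (rows, 13 higher above the line and 15 lower below it) in the 21 warm-sensitive cells (left) and 5 cold-sensitive cells (right). The upper genes are each at 10 CPM or more in some warm-sensitive cells and in fewer than 3 cold-sensitive cells. In cold-sensitive cell 3 Sparcl1 and Npdc1 reach 509 and 418 CPM. The lower genes fill cold-sensitive cells 1, 2, 3 and 5, with cell 4 under 10 CPM for 7 of them.

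The 15 named genes with the largest positive centred differences lay between 3.95 and 4.60, all had entered through warm-sensitive cells alone, and 8 were detected in no cold-sensitive cell. The 13 described here were Ddost, Msmo1, Pisd-ps1, Itih3, Ddrgk1, Gpm6b, Sparcl1, Npdc1, Trank1, Gnptg, Slc1a3, Pla2g7 and Stx12. All 15 stayed past 2 without cold-sensitive cell 4, which the naming rule (2/3 of the size kept with any cell left out) had ensured. Pisd-ps1 is a pseudogene whose reads may come from its parent gene, and Npdc1, Gnptg and Pla2g7 overlap exons of Entpd2, Unkl and 1700071M16Rik. These 4 are therefore uncertain.

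Ddost, a subunit of the complex that attaches sugars to proteins entering the endoplasmic reticulum, had 0, 1.02 and 491 CPM as lowest, median and highest in warm-sensitive cells, against 1.28, 2.87, 0, 0 and 0 CPM in cold-sensitive cells 1 to 5. It was detected in 9 warm-sensitive cells, and the other 12 overlapped the cold-sensitive cells. Of 25 genes of glycosylation and the translocon, through which new proteins enter that compartment, 20 were eligible, 3 were past 2 (Ddost, Canx and Spcs2), Ssr2 was past -2 at -3.19, and the median was 0.48. Without cold-sensitive cell 4 Ssr2 was at -1.95 and Canx, a chaperone of glycoproteins at 2.05 with all cells, was at 1.82, while Ssr4 was at -2.06 in place of -1.70. Spcs2, of the signal peptidase, was at 2.02, a call that any of 9 cells ended when left out, with 1.22 without cold-sensitive cell 3. Ssr2, of the translocon-associated complex, was detected in 9 warm-sensitive and all 5 cold-sensitive cells. The list held members far from the median gene in both directions.

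Genes of sterol and fatty acid synthesis had the highest list median after the astrocyte markers described last, 2.33. Neurons and glia make cholesterol locally, and the pathway's genes are known to be driven together by sterol regulatory element binding proteins when membrane sterol is low. Of 29 such genes 8 were eligible, 5 were past 2 (Msmo1, Hmgcs1, Cyp51, Scd1 and Fasn) and none past -2. Of the 8, 6 had entered through warm-sensitive cells alone, a route by which 43.5% of genes were past 2, against 12.8% of all eligible genes, and without a filter on low genes the list's median was 0.08. Without cold-sensitive cell 4 the count past 2 was 6, with Scd2 at 2.28 in place of 0.82. The number of members detected per cell had a median of 5 in warm-sensitive, 7 in cold-sensitive and 8 in insensitive cells, and their summed level a median of 1054 CPM in warm-sensitive, 694 CPM in cold-sensitive and 967 CPM in insensitive cells. The 5 genes were thus a subset of a pathway that both classes expressed.

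Msmo1, a sterol methyl oxidase, had a median of 1.38 and a highest value of 893 CPM in warm-sensitive cells, against 0, 0.409, 0, 1.16 and 0 CPM in cold-sensitive cells 1 to 5. It was detected in 7 warm-sensitive, 0 cold-sensitive and 15 insensitive cells. Hmgcs1, which makes HMG-CoA at the start of the pathway, was detected in 8 warm-sensitive cells and in cold-sensitive cell 3 at 21.6 CPM, with a centred difference of 2.90. Cyp51, a sterol demethylase, was at 2.37, with a summed level of 29.9 CPM in warm-sensitive and 51.3 CPM in cold-sensitive cells, of which cell 3 held 172 CPM. Cyp51, Scd1 and Fasn were each below 2 when 1 of 3 cells was left out, at lowest 1.76, 1.77 and 1.48.

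Promoters of this pathway are shown because its genes are known to share a regulatory sequence. RefSeq promoters of the build GRCm38.p6, each of 300 bases from 250 before the start to 50 after it, were searched on both strands. The search took exact matches to 1 form of the sterol regulatory element, TCACNCCAC. This form was found in 408 of 32851 promoters (1.24%), belonging to 388 of 27025 genes (1.44%). Of the 21 list members with a promoter 1 had it, Hmgcs1 (chr13:119690101-119690400, plus strand), 137 bases before the start. Cyp51 (chr5:4104648-4104947, minus strand) had no exact match in its window. Other forms of the element were not searched, so a window without a match may still hold one. Capitals mark the match.
Hmgcs1: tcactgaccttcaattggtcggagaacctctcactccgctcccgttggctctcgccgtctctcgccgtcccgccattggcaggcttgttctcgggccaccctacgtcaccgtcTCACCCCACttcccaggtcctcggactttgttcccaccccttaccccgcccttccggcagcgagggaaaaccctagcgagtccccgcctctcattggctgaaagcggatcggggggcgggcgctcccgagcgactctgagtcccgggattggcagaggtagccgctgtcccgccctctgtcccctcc
Cyp51: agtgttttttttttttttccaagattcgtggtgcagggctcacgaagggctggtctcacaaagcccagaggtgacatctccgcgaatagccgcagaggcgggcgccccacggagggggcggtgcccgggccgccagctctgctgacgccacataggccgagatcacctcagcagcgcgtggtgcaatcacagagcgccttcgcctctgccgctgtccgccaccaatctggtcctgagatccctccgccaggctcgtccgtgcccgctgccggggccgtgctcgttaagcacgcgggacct

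Genes of the secretory pathway of peptides were eligible in larger numbers. Of 12 granin and peptide processing genes 10 were eligible, 7 lay above the median gene, 2 were past 2 (Chga and Scg3) and the median was 1.63. Chga and Scg3 had entered through warm-sensitive cells alone, a route by which 43.5% of genes were past 2, against 12.8% of all eligible genes. The list's summed level had a median of 1625 CPM in warm-sensitive, 2166 CPM in cold-sensitive and 2746 CPM in insensitive cells. The number of members detected per cell had a median of 5, 6 and 7.5. Chga, a core protein of dense-core vesicles, was detected in 9 warm-sensitive and 2 cold-sensitive cells with a centred difference of 2.70 that was 1.81 without cold-sensitive cell 5. Scg3 was detected in 7 warm-sensitive cells and in cold-sensitive cell 3, which held 186 CPM against at most 2.31 CPM in the other 4, and its centred difference was 2.42, and 1.78 without cold-sensitive cell 1. Without cold-sensitive cell 4 the list's median was 1.68 and 3 genes were past 2, with Vgf, a secreted granin, at 2.61 in place of 1.97. Without a filter on low genes the median was 0.17. Of 25 neuropeptide genes 1 was eligible, Avp, at 0.06.

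Synaptic vesicle genes lay mostly below the median gene, 15 of 23 eligible, with a list median of -0.36. Syt1, the calcium sensor of vesicle release, and Syp, a vesicle membrane protein, were past 2, Syp at 2.14 and at 1.38 without cold-sensitive cell 5. Syt1 was detected in 19 of 21 warm-sensitive and 4 of 5 cold-sensitive cells, with a median of 214 CPM in warm-sensitive cells against 215, 440, 65.7, 3.47 and 26.9 CPM in cold-sensitive cells 1 to 5. Warm-sensitive cells ran up to 2384 CPM, above every cold-sensitive cell, and its centred difference was 3.30. Napa, at -1.63, was at -2.24 without cold-sensitive cell 4.

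Genes that respond to heat or to activity had list medians near the median gene. Of 24 heat shock and chaperone genes 19 were eligible, with a median within 0.01 of the median gene. Hsp90b1 was past 2 at 2.11, and at 1.03 without cold-sensitive cell 5, and Cct4, a subunit of the chaperonin that folds actin and tubulin, was past -2 at -3.62. Hspa1a, a heat-induced chaperone, was detected in 3 warm-sensitive and 3 cold-sensitive cells at -1.99, and was at -2.28 without cold-sensitive cell 4. Of 18 immediate early genes 10 were eligible with a median of 0.45, and Junb was past 2 at 3.06, detected in 13 warm-sensitive and 2 cold-sensitive cells. Fos, whose RNA follows recent firing, was detected in 17 and 5 cells at -0.42. The cold-induced RNA binding genes Cirbp and Rbm3 were not eligible, detected in 4 and 2 warm-sensitive cells and in 2 cold-sensitive cells each. Slicing and recording came before harvest in every cell.

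**Figure D4:**
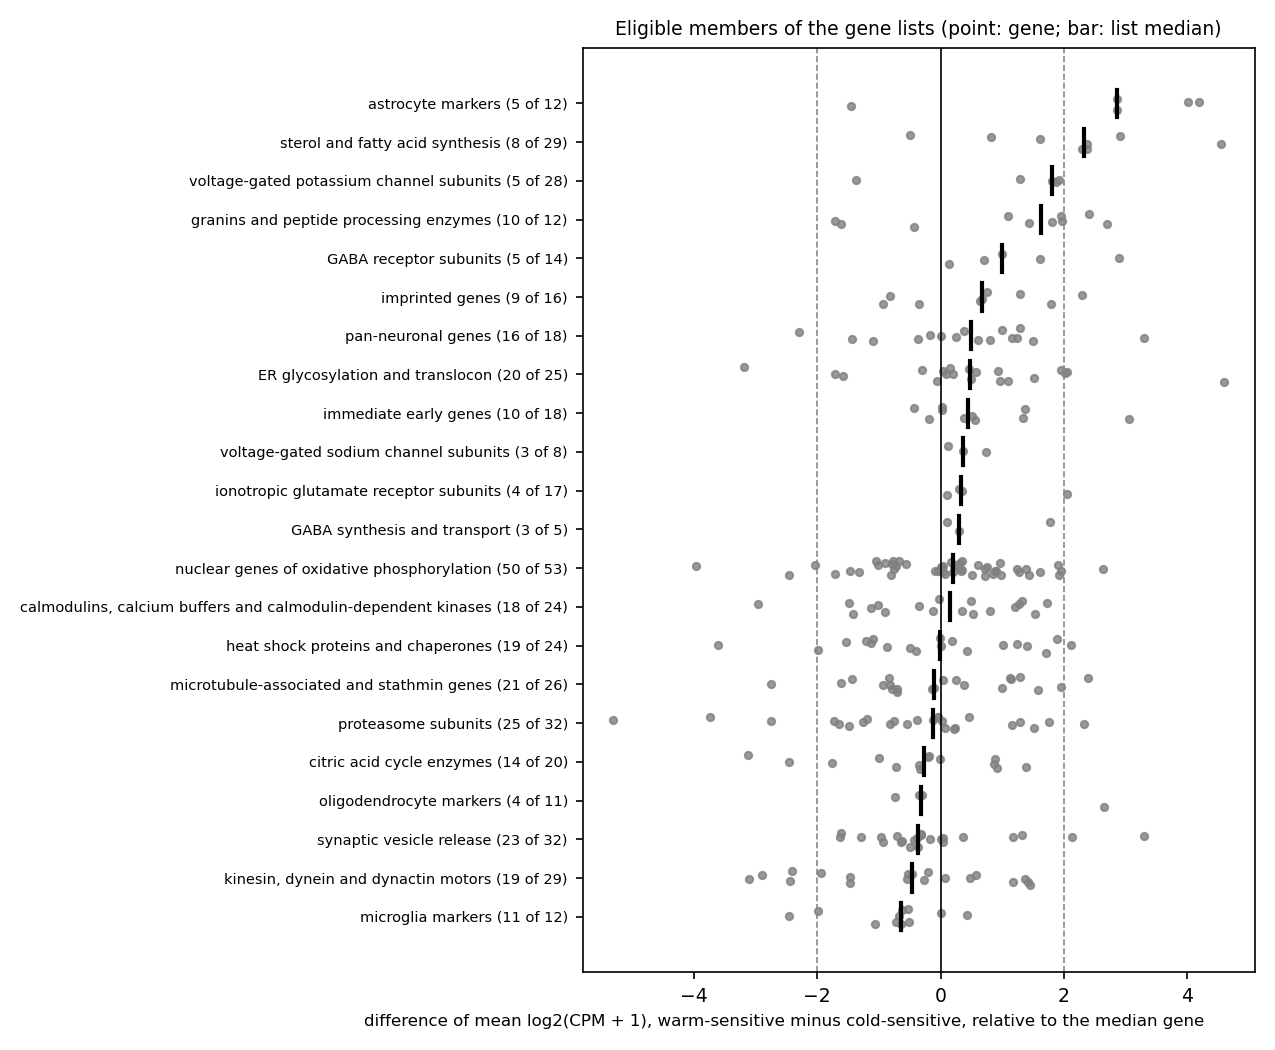
Centred difference of log2(CPM + 1), warm-sensitive minus cold-sensitive (x axis), of each eligible member of the gene lists with 3 or more eligible members (points), with the list median as a bar and -2 and 2 as dashed lines. Astrocyte markers and sterol and fatty acid genes have medians past 2 (2.86 and 2.33), and the microglia markers have the lowest median, -0.65.

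Markers of other cells moved with part of these genes. Of 12 astrocyte markers 5 were eligible and 4 were past 2: Itih3 at 4.20, Slc1a3 at 4.02, and S100b and Slc1a2 at 2.86 each. The fifth, Aldoc, was at -1.45. Of the 5, 4 had entered through warm-sensitive cells alone, where 43.5% of genes were past 2, and without a filter on low genes the list's median was 0.67. The defining markers Gfap, Aqp4, Aldh1l1 and Gja1 were detected in 0, 1, 1 and 2 warm-sensitive cells and in no cold-sensitive cell. The summed level of the list ran from 1.27 to 6367 CPM in warm-sensitive cells (median 844) and from 313 to 2702 CPM in cold-sensitive cells (median 816).

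Slc1a3, a glial glutamate transporter, was highest in warm-sensitive cell 8 at 1117 CPM, as were Itih3 at 1801 CPM and Sparcl1, a matrix protein, at 5622 CPM. That cell also had the highest astrocyte sum, of which Slc1a3 and Itih3 are themselves part. Warm-sensitive cell 16 had 1486 CPM of Sparcl1 with the lowest astrocyte sum, 1.27 CPM. Gpm6b, a membrane proteolipid of neurons and glia, was highest in warm-sensitive cell 4 at 1893 CPM, a cell with 2970 CPM of astrocyte markers. Sparcl1 was detected in 17 of 21 warm-sensitive and 2 of 5 cold-sensitive cells, and had 112, 2.46, 509, 1.16 and 1.92 CPM in cold-sensitive cells 1 to 5. The part of astrocyte RNA in these genes was not tested.

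Microglia markers lay on the other side. Of 12 markers 11 were eligible, 9 lay below the median gene, Ctss was past -2 at -2.45, and the list's median was -0.65. Leaving out cold-sensitive cell 4 gave -1.22, with Cx3cr1 also past -2 at -2.35 in place of -1.98. Leaving out cell 1 or cell 2 of that class turned the sign, to 0.11 and 0.05. The sum of the list ran from 6.01 to 7811 CPM in warm-sensitive cells (median 1090) and was 12463, 9987, 361, 11.6 and 3512 CPM in cold-sensitive cells 1 to 5. Ctss, a lysosomal protease, had 2945, 2863, 171, 1.16 and 470 CPM in those cells, and was at -1.83 without cell 1 and -1.70 without cell 2.

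Cd53, a tetraspanin of leukocytes, was the member of the 15 lower genes that microglia are known to express, detected in 2 warm-sensitive cells (highest 243 CPM) with 438, 230, 82.5, 0 and 98.4 CPM in cold-sensitive cells 1 to 5. Over the 5 cold-sensitive cells Cd53 had the same order as the microglia sum. The 2 warm-sensitive cells with Cd53, cells 8 and 14, had microglia sums of 4196 and 7811 CPM. Warm-sensitive cells 3 and 21, with sums of 6987 and 3794 CPM, had 0 CPM of Cd53. The part of microglial RNA in Cd53 and Ctss was not tested.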

How the data were processed

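RNA of single preoptic neurons was measured by Smart-seq2 after patch-clamp recording. The authors deposited 2 tables, the first of raw read counts and the second of normalized signal values, which equal each cell's counts times 1 constant. The making of that constant, the annotation and the counting step: not given in the sources used here. The submitters' processing notes name FastQC, STAR, edgeR and the build mm10. Strand use is not given either, so overlapping genes cannot be told apart.

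Counts of 24054 genes were divided by a cell's total, Rn45s included, and multiplied by 1000000 (CPM). No 2 of the 26 cells held identical values (325 pairs; highest correlation of log values 0.52). Differences are of mean log2(CPM + 1), with a pseudocount of 1, relative to the median eligible gene; the filter and the threshold of 2 stand in the text. Members and the 33 gene lists were chosen with earlier results of these data known, so no list is independent support. Named genes are the 15 largest in each direction whose share and centred difference agree in sign and which keep 2/3 of their size when any cell is left out, without predicted, ribosomal protein and clone names; also up to 4 eligible members per list and 24 fixed genes. Mitochondrially encoded genes were not analysed here, and some named and listed genes are not reported here and were left out of the lists. Cells are numbered in accession order.

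No test was made, since no label names an animal. Summed counts have exact Poisson and shares exact Clopper-Pearson 95% intervals. On simulated data, with the same share of detected cells for a gene in both classes, only the direction of known changes was checked. The threshold of 2 and the effect of unequal detection were not. Alternatives were totals outside Rn45s, edgeR TMM library sizes, DESeq2 size factors, the deposited values, pseudocounts, filters, thinned counts, left-out cells, sums, medians and a term for the letter in the sample title, plus 1 filter added after seeing the data. The tools were R 4.3.3 with edgeR 4.0.16 and DESeq2 1.42.0, and Python 3.11.15 with pandas 2.3.3, numpy 2.4.6 and scipy 1.17.1. Overlaps come from GENCODE gene models of mm10, and promoters from RefSeq.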

Additional observations from a re-analysis of the deposited data

Results flagged for a closer look

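Of 93 measures compared over the 5 cold-sensitive cells, 13 had 1 cell lying far from the other 4 (levels taken as log2). For independent, normally distributed measures chance flags about 1 in 20. These measures share the same 5 cells, some overlap, and some genes were chosen for large differences. The count of 13 can therefore not be judged against that rate. In 10 of the 13 the cell was cold-sensitive cell 4, and each time it was the lowest. Its summed level of leak, background potassium and pacemaker channel genes was 0 CPM, against 63.9 to 294 CPM in the other 4 cells, of voltage-gated potassium channel genes 6.93 CPM, against 364 to 995 CPM, and of heat shock and chaperone genes 1460 CPM, against 4540 to 6176 CPM. Single genes that stood low there were Fez1, Hspa8 and Tuba4a at 1.16 CPM each, Camk1 and Peg3 at 2.31 CPM each, Kif5c at 3.47 CPM and Map1b at 6.93 CPM. The other 3 were high in cold-sensitive cell 3: the calmodulin and calcium buffer genes summed to 8716 CPM, against 3424 to 3987 CPM, Npdc1 stood at 418 CPM, against at most 1.16 CPM, and Scg3 at 186 CPM, against at most 2.31 CPM. Cold-sensitive cell 4 had 482 detected genes and cold-sensitive cell 3 had 3443, the lowest and highest of its class; the part of detection in these values was not tested.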

How the results depend on the processing

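The number of genes past 2 and past -2 (281 and 163) depended on the settings. With totals outside Rn45s they were 394 and 359, with DESeq2 size factors 201 and 262, with a pseudocount of 0.1 CPM 442 and 383, with 10 CPM 42 and 30, without a filter 51 and 1167, with counts thinned to 100000 528 and 628, with medians over cells 751 and 476, without cells over 75% Rn45s 356 and 367, and with the filter over all 26 cells, chosen after seeing the data, 172 and 155. The median gene (-1.56) was at -0.099 without a filter and -3.24 with medians over cells. Leaving out 1 cell gave 263 to 342 genes past 2, 160 to 237 past -2 and a median gene of -2.26 to -1.28. Each of the 30 genes with the largest differences kept its direction under all 14 alternatives. Keeping it over all 26 left-out cells was a condition of naming these genes and adds nothing. Of the 30 genes 22 were past 2 in size in every alternative. With counts summed over a class Fgf13 (-1.35), Ngb (-1.11), Sult4a1 (-1.06), Sgta (-1.53), Ypel3 and Eif3k (-1.93 each) and Npdc1 (1.53) were inside it, and with a pseudocount of 10 CPM Fgf13 (-1.91) and Cyb5 (-1.82). Medians of the lists for granins, sterol synthesis, astrocytes and motors kept their sign in all 14, but without a filter the first 3 were 0.17, 0.08 and 0.67 in place of 1.63, 2.33 and 2.86, and that of sterol synthesis was past 2 in 9 of the 14; that of potassium channels was -0.07 on the deposited values. No paired analysis was possible because the labels give the cells no shared number. Only 5 cold-sensitive cells, 1 of them with 482 detected genes, and intervals up to 52.2% around a count of 0 limit every statement.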
